A study of Mus musculus with 2 samples.

Results

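Ptgs1, Ptgs2 and Acsl4 code for enzymes that handle arachidonic acid on its way to the prostaglandins, and they were followed in growth-arrested mouse embryonic fibroblasts kept without or with FGF2. These are 3 of the 7413 genes that could be named on the arrays. All probes that could be named as theirs were taken, 5 of 24044: 1 for Ptgs1, 2 for Ptgs2 and 2 for Acsl4. Only 8893 of the 24044 probes could be given a gene, so further probes of these genes may be unnamed. A probe's gene was read from the number in its ID as a mouse NCBI gene ID (19224, 19225 and 50790), which is a reading of the IDs and is stated nowhere in the files. The genes were chosen by their measured signals on these same arrays, so their ratios below are a description without a test. Of the 5 probes, 3 were detected on both arrays, 1 on the FGF2 array alone and 1 on neither.

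The cells were primary fibroblasts of CD1 mice, of the type laid under human embryonic stem cells as a feeder layer. All had been inactivated with mitomycin C, which crosslinks DNA and stops division, and replated on gelatine at 55000 cells per square centimetre. From the next day the control culture had serum replacement-based stem cell medium without FGF2, and the other culture had the same medium with 40 ng/ml FGF2, both for 24 h. Each was measured once, on 1 Illumina bead array, so there is no replicate check and every difference compares these 2 arrays only.

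Arachidonic acid sits in membrane phospholipids and is released by phospholipases A2. Acsl4 (acyl-CoA synthetase long-chain family member 4) joins free arachidonic acid to coenzyme A, which returns it to phospholipids and keeps it out of reach of other enzymes. The cyclooxygenases Ptgs1 (COX-1) and Ptgs2 (COX-2) turn free arachidonic acid into prostaglandin H, the shared precursor of all prostanoids. Ptgs1 is usually described as the constitutive form, and Ptgs2 as the form induced by growth factors, cytokines and serum. Terminal synthases then make the individual prostaglandins, of which fibroblasts are known to secrete prostaglandin E and prostacyclin.

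No probe sequence was given, so the promoters of the 3 genes are shown instead. The genes were chosen by their signals, so no common control is read from these promoters. Each is the 250 bases before the 1 transcript start that the table of RefSeq promoters (GRCm38.p6) gives for the gene, on the strand of the gene, with each motif match in capitals. They lie at chr2:36230176-36230425 on the plus strand for Ptgs1, chr1:150099781-150100030 on the plus strand for Ptgs2 and chrX:142390536-142390785 on the minus strand for Acsl4. The Ptgs2 window lies just before the gene, which spans chr1:150100031-150108234. The windows of Ptgs1 and Acsl4 belong to internal starts: they lie within the annotated spans chr2:36216742-36258593 and chrX:142317993-142390802, so for these 2 genes the outermost start is not shown.
Ptgs1: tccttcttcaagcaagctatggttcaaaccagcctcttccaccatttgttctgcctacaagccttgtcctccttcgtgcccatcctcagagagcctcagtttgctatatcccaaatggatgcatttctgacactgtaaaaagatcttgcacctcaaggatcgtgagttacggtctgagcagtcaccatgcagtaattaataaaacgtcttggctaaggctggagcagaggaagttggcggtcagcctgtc
Ptgs2: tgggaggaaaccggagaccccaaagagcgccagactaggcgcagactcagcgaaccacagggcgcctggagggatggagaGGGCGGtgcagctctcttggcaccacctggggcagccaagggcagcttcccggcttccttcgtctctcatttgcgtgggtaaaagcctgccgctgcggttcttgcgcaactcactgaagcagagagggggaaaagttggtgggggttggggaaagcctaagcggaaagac
Acsl4: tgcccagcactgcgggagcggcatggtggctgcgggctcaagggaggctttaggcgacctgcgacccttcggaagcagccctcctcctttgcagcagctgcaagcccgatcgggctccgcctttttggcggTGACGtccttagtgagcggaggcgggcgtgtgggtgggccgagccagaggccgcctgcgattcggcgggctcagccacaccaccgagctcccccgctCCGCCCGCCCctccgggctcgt

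Motifs were searched on both strands in the whole 300-base window, which also takes in the first 50 bases after the start. The Ptgs1 window held none of the 6 motifs searched (the TATA box TATAAA, the response element core TGACG, the GC box GGGCGG, the CCAAT box, the E-box CACGTG and the AP-1 site TGANTCA). The Ptgs2 window held GGGCGG once, the Sp1-type GC box, at position -170 from the start. It also held TGACG, the core of a cyclic AMP response element, on the minus strand at position 14 after the RefSeq start. There it overlaps CACGTG, the E-box, which begins at position 17. Positions are counted from the annotated start, and where transcription begins in these cells was not measured. Whether TGACG and CACGTG lie before the start used by the cells or within the transcript was therefore not tested. The stretch chr1:150100033-150100062 shows both, with the overlapping matches in capitals.
Ptgs2: agtcaccactaCGTCACGTGgagtccgctt
In the Acsl4 window TGACG lay at -119, and GGGCGG was found on the minus strand at -22 and -18, where the copies overlap. Of all 32851 promoter windows in the table, 20.8% held TGACG, 35.7% GGGCGG and 7.15% CACGTG. Matches to TGACG and GGGCGG are thus common, and those to CACGTG less so. The GC content of the 250 bases was 48.0% for Ptgs1, 61.6% for Ptgs2 and 70.8% for Acsl4, against a median of 52.4% over all promoters. A match is only a run of letters, and no binding was measured.

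A probe counted as detected at a detection score of at least 0.99; this score is highest, at 1, for bright probes. The median signal of undetected probes, taken here as background, was 140.5 intensity units without and 132.5 with FGF2. The lowest detected signals were 197.9 and 186.9. Member values just inside the threshold were the control readings of Ptgs1 and of the dimmer Acsl4 probe, both with a score of 0.996. The nearest one outside was the control reading of the brighter Ptgs2 probe, with a score of 0.888. Signals below carry the bead value that the files call a standard deviation, which describes beads of 1 array and not cultures.

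Ptgs1, the constitutive cyclooxygenase, gave a control signal of 215 ± 8.4 (bead SD) and an FGF2 signal of 589.9 ± 31.7. The control reading was 1.53 times background and lay 2.04 bead SDs above the lowest detected signal. With FGF2 the reading was 4.45 times background and 12.7 bead SDs above that limit. The probe was thus close to the detection limit in one culture and well clear of it in the other. After quantile normalization the signals were 208.1 and 601.9, a ratio of 2.89 or 1.53 on the log2 scale, with a bead error of 0.096. Of 8711 probes detected on at least 1 array, 41 had a higher ratio. Ptgs1 was picked by its signals on these arrays, so nothing is read from this rank.

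Background made up 65.3% of the control signal of Ptgs1 and 22.5% of its FGF2 signal, so the ratio depends on how background is handled. In the authors' deposited table, which is background-subtracted, the values were 75.9 and 483, a ratio of 6.37. Moving both signals by 1 bead SD, toward each other and apart, changes that ratio to 5.34 and 7.66. A model-based background correction (neqc in limma) gave a ratio of 5.53. The direction was the same in each.

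Ptgs2, the inducible cyclooxygenase, was detected on the FGF2 array only. Its brighter probe read 165.8 ± 7.6 without FGF2, which is -4.22 bead SDs from the lowest detected signal, and 336.1 ± 13.8 with FGF2, which is 10.8 bead SDs above it. The control reading was 1.18 times background and the FGF2 reading 2.54 times. A fold can then be given only as a bound: Ptgs2 was at least 1.80-fold higher, a bound of 0.85 on the log2 scale, from normalized signals of 160.6 and 344.5 with the control at the floor of 191.7. Against the lowest value in the authors' deposited table the bound was 3.67-fold. By the 1.80-fold bound, 164 of the 8711 detected probes had a higher ratio, and nothing is read from this rank either. The second Ptgs2 probe read 128.9 ± 6.3 and 122.5 ± 5.6, with detection scores of 0.316 and 0.355. It lay below the background median on both arrays and gives no ratio, so the level of Ptgs2 rests on 1 probe.

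Acsl4, the arachidonate-preferring acyl-CoA synthetase, was detected by both of its probes on both arrays, and both were higher with FGF2. The brighter probe read 340 ± 13.3 without and 765.5 ± 27.5 with FGF2, 2.42 and 5.78 times background. Its normalized signals of 332.2 and 777.5 gave a ratio of 2.34, or 1.23 on the log2 scale with a bead error of 0.077. The dimmer probe read 211.3 ± 7.5 and 259.7 ± 8.7, which is 70.8 and 127.2 units above background. Its ratio was 1.31, or 0.38 on the log2 scale with a bead error of 0.070. Of the 8711 detected probes, 77 had a higher ratio than the brighter probe and 893 a higher one than the dimmer. The probes thus gave the same direction and different sizes. As Acsl4 was picked by its signals, nothing is read from the rank of either probe.

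**Figure D1:**
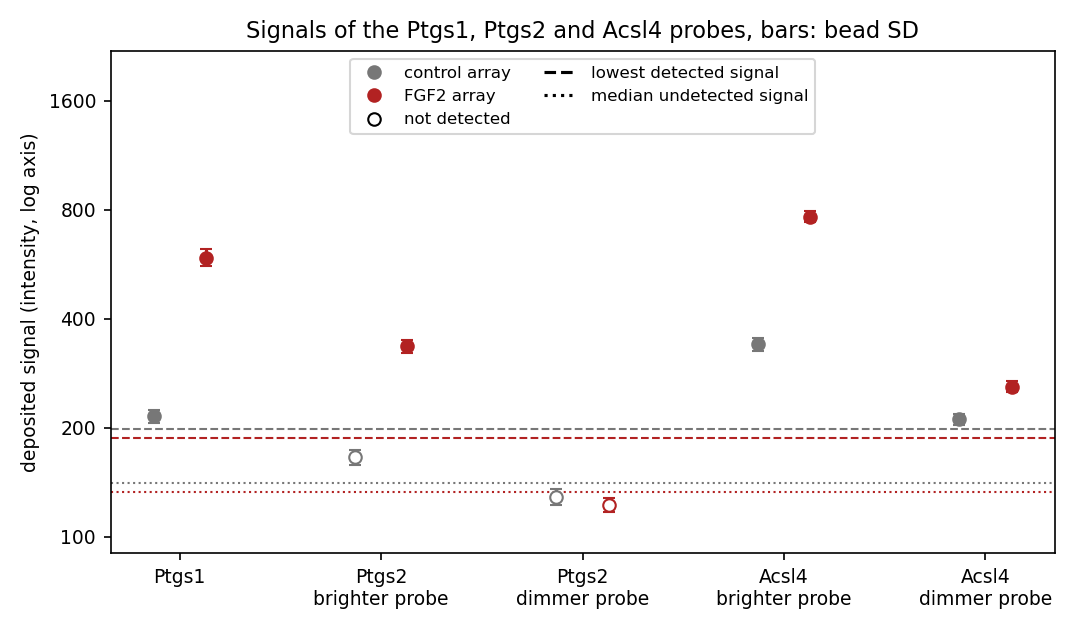
Deposited signal (intensity, log axis) of each Ptgs1, Ptgs2 and Acsl4 probe on the control array (grey) and the FGF2 array (red), with the bead SD as bars and open symbols for readings that were not detected. Dashed lines mark the lowest detected signal and dotted lines the median undetected signal of each array. All probes but one are brighter with FGF2: the dimmer Ptgs2 probe stays below background on both arrays.

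The difference between the Acsl4 probes was 0.84 on the log2 scale. Among 305 pairs of probes of the same gene detected on both arrays, from 247 genes, the median difference was 0.15 and 2 pairs differed more. Acsl4 was chosen by its measured signals, so nothing is read from that rank. The gap was 0.83 in the authors' deposited values, in which the probes had ratios of 3.33 and 1.87, and 0.83 after neqc. Removing background therefore raised both ratios and left the gap between them about as wide. Which transcripts each probe reads is not given in the files, and the cause of the gap was not tested.

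A ratio of 2 or more was found in 2 of the 4 member probes detected on either array, against 1.38% of all detected probes. The Ptgs2 probe was counted by its lower bound of 1.80, so its ratio may be 2 or more. Among 3790 probes whose brighter reading fell in the range of these 4 (normalized signals of 267.5 to 777.5), 1.11% were. In the authors' deposited values 3 of the 4 were at least 2-fold higher, against 3.43% of all. The genes were picked for these ratios, so nothing is read from the contrast with the other probes.

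**Figure D2:**
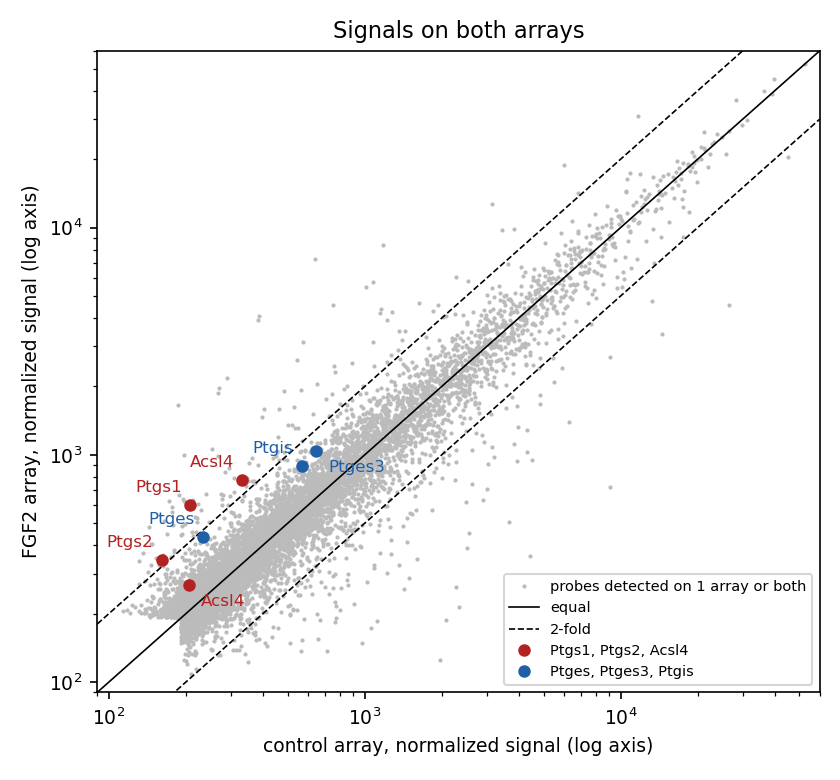
Quantile-normalized signals of the 8711 probes detected on at least 1 array, control on the x axis and FGF2 on the y axis (both log axes). The solid line marks equal signals and dashed lines 2-fold. Ptgs1 and the brighter Acsl4 probe lie above the upper dashed line. The Ptgs2 point also lies above it, but is drawn at its undetected control reading, where no fold is given. Ptges, Ptges3 and Ptgis lie between the lines.

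A list of pathway genes was drawn up from general knowledge, with earlier results of these data known. The remaining genes of the pathway were taken from this list of 88 genes in 10 roles. Of these, 26 had a probe under the naming match and 17 were detected, the 3 enzymes above included. Outside the 3, 14 genes were detected, of which 3 passed 1.5-fold upward with FGF2 and 11 lay within 1.5-fold. None was 1.5-fold lower by these values. Of the 11, Cyp2j9 was detected on the control array only, so its value is a bound and a larger fall is possible. Over all 3220 named genes detected, 4.57% passed 1.5-fold upward and 5.06% passed it downward. The median log2 ratio of the 14 was 0.03, the same to this precision as that of all named genes. With no replicates this count was not tested, and nothing is read from its contrast with all named genes.

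The 3 higher genes were all terminal prostanoid synthases, out of 5 of that role detected. Ptges (microsomal prostaglandin E synthase 1), the inducible enzyme that acts after the cyclooxygenases, read 240.6 ± 9.1 without and 424.5 ± 15.9 with FGF2. Its ratio was 1.87, or 3.04 in the authors' deposited values. Ptges3, the cytosolic prostaglandin E synthase that is also the HSP90 co-chaperone p23, read 657.1 ± 22.5 and 1014.3 ± 41.0, a ratio of 1.61. A second Ptges3 probe was not detected on either array, with readings of 167.3 and 174.5. Ptgis, which makes prostacyclin, read 575.2 ± 15.5 and 875.7 ± 43.1, a ratio of 1.58.

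On the log2 scale these 3 ratios were 0.90 for Ptges, 0.68 for Ptges3 and 0.66 for Ptgis; how far such values vary between untreated cultures was not measured. Akr1b3, an aldose reductase that can form prostaglandin F, had a log2 ratio of 0.24. Prxl2b, another prostaglandin F synthase, stood at -0.07. Both of these enzymes linked to prostaglandin F thus lay within 1.5-fold on this pair of arrays.

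**Figure D3:**
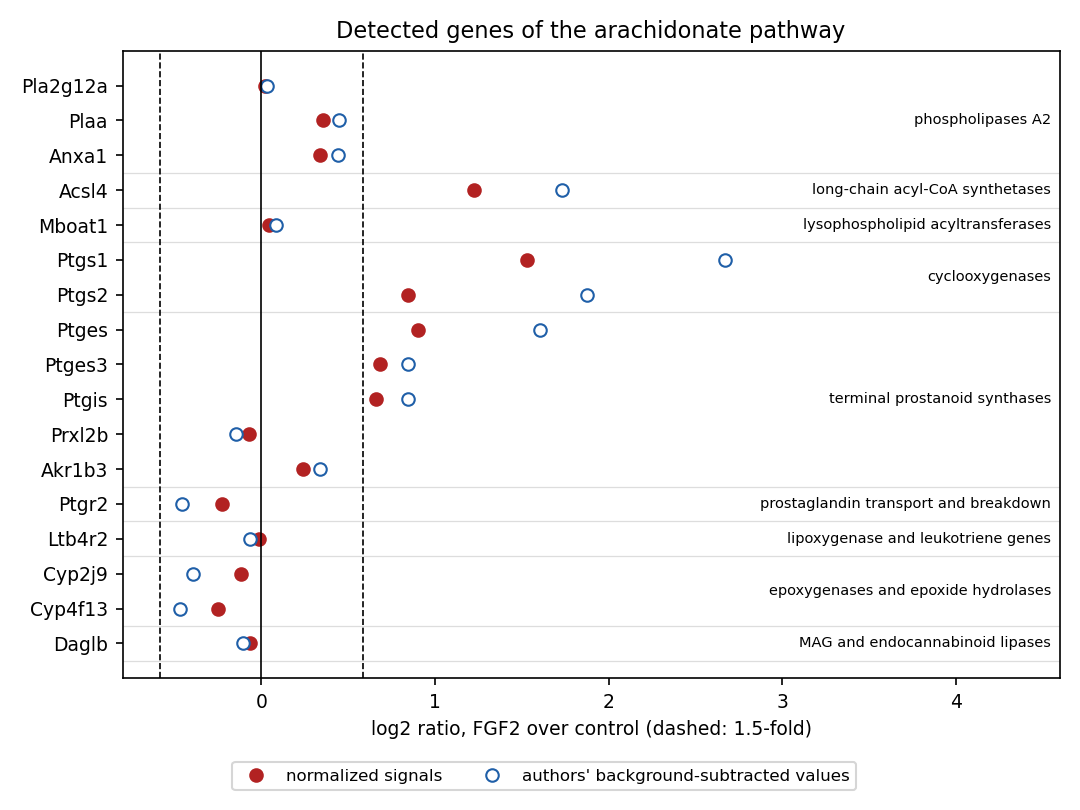
Log2 ratio of FGF2 over control for the 17 detected pathway genes, grouped by role, from normalized signals (filled) and from the authors' background-subtracted values (open); dashed lines mark 1.5-fold. The 6 genes right of the line are Acsl4, Ptgs1, Ptgs2, Ptges, Ptges3 and Ptgis, on both scales. Of all named genes detected, 4.57% passed 1.5-fold upward on normalized signals and 11.6% on the authors' values. The values of Ptgs2 and Cyp2j9, each detected on 1 array, are bounds.

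Outside the cyclooxygenases and terminal synthases, the detected genes all lay within 1.5-fold, apart from Acsl4, and from Cyp2j9, which has only a bound. Among phospholipases A2 and their regulators, Pla2g12a, a secreted phospholipase, had a log2 ratio of 0.02. Plaa, the phospholipase A2 activating protein, stood at 0.35, and Anxa1 (annexin A1), an inhibitor of phospholipase A2, at 0.34. Pla2g5 was not detected. Of the other acyl-CoA synthetases, Acsl1 read 166.8 and 172.3 and Acsl3 read 130.5 and 118.3, neither of them detected, so of the 3 synthetases with a named probe Acsl4 alone has a ratio. Mboat1, a lysophospholipid acyltransferase, had a log2 ratio of 0.05.

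On the side of breakdown and response, Ptgr2, a prostaglandin reductase, had a log2 ratio of -0.23. Hpgd, the dehydrogenase that inactivates prostaglandin E, was not detected, with readings of 167.8 and 127.5. The prostaglandin E receptors Ptger1 and Ptger4 were not detected either. For Ptger4 the scores of 0.972 and 0.943 were just under the threshold, and for Ptger1 they were 0.673 and 0.532. Ltb4r2, a leukotriene B receptor, was detected near the limit with a log2 ratio of -0.01. The epoxygenase-type cytochrome gene Cyp2j9 had a bound of -0.12, Cyp4f13 a log2 ratio of -0.25 and the diacylglycerol lipase Daglb one of -0.07. Of the list, 62 genes had no probe under the naming match, among them the cytosolic phospholipase Pla2g4a, and were not analysed here.

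The genes nearest to each enzyme in the plane of both normalized log2 signals, among probes with the same detection pattern, were found by distance. With 2 arrays such likeness covers only a level and a ratio. Nearest to Ptgs1 were Gzme (distance 0.12), Egln3 (0.15) and Smox (0.35), of 3157 probes compared. Near the brighter Ptgs2 probe lay Nefm (0.071) and Gzmd (0.15), of 183. For the brighter Acsl4 probe they were Noct, Ugt1a6b and Nes, at distances of 0.11, 0.11 and 0.12, and for the dimmer one Ccdc43 (0.011), Tmem47 (0.040) and Cd40 (0.045).

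Ptgs1 is also abundant in platelets and mast cells, and both cyclooxygenases can be made by macrophages, so markers of other cell types were read on the same arrays. Of fibroblast markers, 5 of 6 with a named probe were detected, among them Col1a1 and Dcn, with a summed signal of 18087 without and 13324 with FGF2. The collagen genes Col1a1, Col1a2 and Col3a1 were lower, with log2 ratios of -1.76, -1.30 and -0.57. Dcn and S100a4, a calcium-binding protein of fibroblasts, were higher, at 0.42 and 0.75. None of 3 mast cell markers (Cma1, Fcer1a and Mcpt4) and not the 1 platelet marker with a probe (Itga2b) was detected on either array. Of 6 macrophage markers only Lyz2 was, at 231 and 199.2, while Csf1r, Cd68, Fcgr3, Itgam and Ptprc were not. Emcn and Eng were detected among 3 endothelial markers, with a summed signal of 577.5 without and 571.0 with FGF2. Of 4 epithelial markers Krt18 and Cldn4 were detected, and their summed signal was 421.2 and 591.6. Among these markers of other cell types only Krt18 was at least 1.5-fold higher with FGF2, at 211.2 without and 375.7 with it, and its part in the results was not tested. In RNA of whole cultures, a change in the share of a cell type and a change in RNA per cell cannot be told apart.

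**Figure D4:**
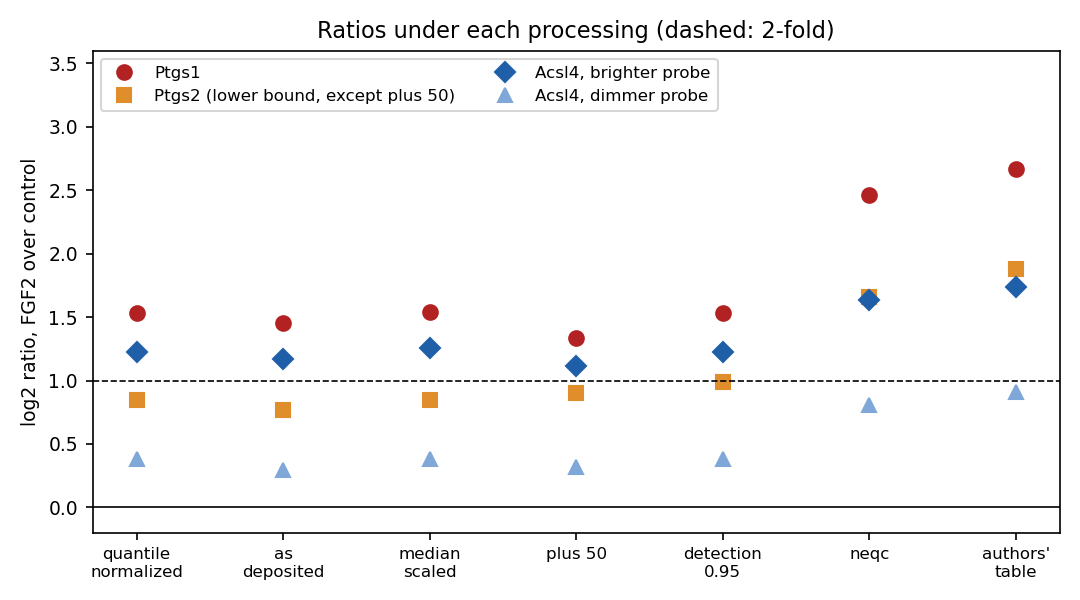
Log2 ratio of FGF2 over control for the 4 detected member probes under 7 ways of processing, dashed line at 2-fold. All values are above 0; the settings that remove background (neqc and the authors' table) give the largest ratios, up to 2.67 for Ptgs1, and Ptgs2 values are lower bounds except with an added 50.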

How the data were processed

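Total RNA (300 ng) of 1 culture per condition was amplified with 6 h of in vitro transcription, labelled with Cy3 and read on 1-colour bead arrays, per the labels' protocols. BeadStudio 1.0 was used, per the submitters' processing notes. Each deposited file lists 3 values per probe, per the file headers: the average intensity, its bead standard deviation and a detection score. The intensities hold background. The authors' deposited table of the same arrays holds linear intensities, given only where detected. For the control array they are the signal minus 139.2. For the FGF2 array 131.5 is first subtracted from the signal, and the result is multiplied by 1.054. The medians of that table are 288 and 293, and its normalization method is not named in those sources.

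Of 9523 probe IDs with a number of at least 5 digits after 1 or 2 zeros, 93.3% matched a mouse gene ID (RefSeq table, GRCm38.p6), against 48.6% for that number plus 1. Array coordinates are not used. Signals were quantile normalized, floored at each array's lowest detected signal (191.7 and 193.1), and given as log2 ratios of FGF2 over control. Where a gene had several detected probes, the brightest stood for it. The number of arrays limits the precision. Named genes were the members, the list genes and the 3 nearest probes; 1 gene that this rule takes is not reported here. Members and lists were chosen with earlier results of these data known. Alternatives were the signals as deposited, median scaling, the authors' table, neqc (limma 3.58.1, R 4.3.3, offset 16), an added 50, detection at 0.95 and the median of a gene's probes. The ratio step was tested on simulated data, with changes planted only in probes well above background on the control array. That setting leaves out readings as dim as the control readings of Ptgs1, Ptgs2 and the dimmer Acsl4 probe. To pass, the step had only to return the direction of the planted changes, not their size. Python 3.11.15, numpy 2.4.6 and pandas 2.3.3 were used.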

Additional observations from a re-analysis of the deposited data

How the results depend on the processing

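The ratios of Ptgs1, Ptgs2 and both Acsl4 probes kept their direction under all 6 alternatives. A ratio was counted as moved when it shifted by 0.18 or more, the SD of a log2 ratio between probes of a gene, and a count when it changed by over 1.5 times; 15 of 24 ratios and 22 of 26 counts did not move. The moves came mainly from removing background. In the authors' deposited table the log2 ratios were 2.67 for Ptgs1, 1.88 (a bound) for Ptgs2, 1.73 for the brighter and 0.91 for the dimmer Acsl4 probe, and 299 probes were at least 2-fold higher and 392 lower, against 120 and 155 with normalized signals. With neqc these values were 2.47, 1.66, 1.64, 0.80, 252 and 336. With an added 50 the Ptgs1 ratio was 1.34. The bound of Ptgs2 ran from 0.76 with the signals as deposited to 1.88, and so fell on either side of 2-fold. The count of pathway genes at least 1.5-fold higher was 6 and of those 1.5-fold lower 0 under every alternative, but 3 of the 6 are the genes chosen for their ratios, and 3 lie outside them. The share of all named genes that passed 1.5-fold upward ran from 3.66% with the signals as deposited to 11.6% in the authors' table. No test was run. No paired analysis was possible because each group holds 1 array. The number of arrays limits every ratio, and signals close to background limit those of Ptgs1, Ptgs2 and the dimmer Acsl4 probe further.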
